A study of Mus musculus with 21 samples.

Results

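The genes described here are 10 genes of heart muscle, measured in the lungs of Fendrr-/- mouse embryos and of their wild-type littermates. They were Nppa, Myl7, Myl4, Myh6, Myh7, Tnnt2, Tnni3, Actc1, Ryr2 and Ankrd1, and each had 1 entry among the 42760 entries of the lung table. They were chosen by their higher level in knockout lung in this same table, so the difference between the genotypes is given as a description and supports nothing by itself. Fendrr, named linc-Foxf1a in the labels, is a long intergenic noncoding RNA gene. In the knockout its transcribed body was replaced by a lacZ cassette, with the promoter and the first exon kept. The mouse line came from hybrid embryonic stem cells and was crossed once to C57BL/6J. Whole lungs were taken at E14.5 from 2 wild-type (linc-Foxf1a+/+) and 2 knockout (linc-Foxf1a-/-) embryos, and mRNA-seq libraries were made from their RNA. The other 8 groups of the series were E18.5 brain of wild-type and Peril knockout embryos, and, for wild-type and linc-Brn1b knockout animals, the brain at P7 and the telencephalon of embryos at E13.5 or E15.5.

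Each table holds 1 FPKM value (fragments per kilobase of transcript, scaled to the mapped fragments of the library) for each gene and genotype, pooled over the libraries of that genotype. The spread between embryos therefore cannot be seen, no test was possible, the sequencing depth is unknown, and every difference below is between pooled values. Differences are log2((knockout FPKM + 0.1)/(wild-type FPKM + 0.1)), and a gene counts as higher when this reaches 2-fold. The entry over the Fendrr locus was at 38.4 FPKM in wild-type lung and 0.0450 FPKM in knockout lung. The lung libraries also differed in the genes of the Y chromosome: Ddx3y, Kdm5d and Uty were at 10.6, 4.55 and 4.91 FPKM in wild-type lung, and all 3, like Eif2s3y, were listed at 0 in knockout. Xist, the RNA that silences one X chromosome in females, was at 52.0 FPKM in wild-type lung and 106 FPKM in knockout. The pools thus differed in the sex of their embryos, and genotype and sex cannot be told apart in these values.

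Heart muscle contracts through sarcomeres, in which myosin heavy and light chains pull on actin filaments under the control of the troponin complex. Atrial and ventricular muscle use different versions of several of these proteins, and atrial muscle also secretes the hormone encoded by Nppa. In rodents a sleeve of heart muscle of atrial kind runs along the pulmonary veins into the lung, so that transcripts of heart muscle are found in lung tissue.

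Promoter sequences of 4 members are shown because these genes mark the ends of the range described below: Nppa and Ankrd1 had the largest relative differences, and Myl7 and Actc1 the highest levels. All 10 members had an entry in the RefSeq promoter table of build GRCm38.p6, which holds 250 bases before and 50 bases after the start site. This build differs from the mm9 build of the expression tables. The windows are chr4:148000472-148000771 on the plus strand for Nppa and, on the minus strand, chr19:36119795-36120094 for Ankrd1, chr11:5898733-5899032 for Myl7 and chr2:114052826-114053125 for Actc1. They read 5′ to 3′ along the gene, and capitals mark letters that match a searched motif on either strand.
Nppa: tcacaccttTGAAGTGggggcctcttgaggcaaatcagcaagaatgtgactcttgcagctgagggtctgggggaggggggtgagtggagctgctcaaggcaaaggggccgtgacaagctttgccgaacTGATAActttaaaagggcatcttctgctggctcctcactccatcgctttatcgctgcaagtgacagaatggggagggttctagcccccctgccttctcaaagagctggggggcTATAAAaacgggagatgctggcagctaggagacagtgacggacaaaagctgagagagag
Ankrd1: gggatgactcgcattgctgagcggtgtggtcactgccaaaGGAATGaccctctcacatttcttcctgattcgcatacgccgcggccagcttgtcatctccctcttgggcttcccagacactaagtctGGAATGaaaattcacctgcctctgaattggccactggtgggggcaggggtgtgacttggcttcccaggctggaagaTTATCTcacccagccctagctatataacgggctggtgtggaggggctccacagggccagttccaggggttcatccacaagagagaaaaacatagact
Myl7: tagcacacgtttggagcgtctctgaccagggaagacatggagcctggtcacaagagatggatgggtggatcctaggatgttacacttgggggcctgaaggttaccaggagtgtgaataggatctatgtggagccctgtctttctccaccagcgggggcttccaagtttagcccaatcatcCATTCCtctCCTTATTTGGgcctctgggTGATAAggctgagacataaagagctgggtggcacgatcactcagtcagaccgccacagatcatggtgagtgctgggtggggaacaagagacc
Actc1: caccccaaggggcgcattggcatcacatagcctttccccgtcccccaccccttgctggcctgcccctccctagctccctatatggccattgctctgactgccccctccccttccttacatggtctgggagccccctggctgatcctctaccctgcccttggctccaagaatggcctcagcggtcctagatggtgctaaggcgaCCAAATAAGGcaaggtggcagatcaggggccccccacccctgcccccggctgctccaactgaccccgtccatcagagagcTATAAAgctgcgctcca

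The motifs searched were those of transcription factors known from heart muscle, and the TATA box. The GATA motif was spelled AGATAA or AGATAG or TGATAA or TGATAG, the M-CAT motif CATTCC, the TATA box TATAAA and the NKX2-5 motif TNAAGTG. The CArG box, bound by serum response factor, and the MEF2 motif were searched by their usual consensus. None of the matches printed above overlaps another. The GATA motif was present in the windows of 5 members (Nppa, Myl7, Myh6, Tnnt2 and Ankrd1) and in 29.8% of all 32851 windows. The M-CAT motif was present for 5 members (Myl7, Myh6, Myh7, Tnnt2 and Ankrd1), against 14.7% of all windows. A CArG box was found for Myl7 and Actc1, against 1.63% of all windows. The TATA box was found for Nppa, Myh6 and Actc1, against 13.6% of all windows, and the NKX2-5 motif for Nppa and Myh7, against 11.5%. No member window held the MEF2 motif, which occurred in 3.19% of all windows. The 2 members with the largest relative difference shared the GATA motif, which Myl7, Myh6 and Tnnt2 held as well. A match is a match of letters only.

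All 10 members were at a higher FPKM in knockout than in wild-type lung, and 9 of them were at least 2-fold higher, beside 1.20% of the 14265 lung genes that reached 1 FPKM in either genotype. Since the members were selected on this contrast, nothing is read from that count. Their median log2 difference was 1.55, beside 0.00 for all 14265 genes, whose 5th and 95th percentiles were -0.39 and 0.36. The members summed to 389 FPKM in wild-type lung and 1194 FPKM in knockout, or 0.0749% and 0.226% of all FPKM in the table. In bulk tissue, more cells of a type and more RNA per cell cannot be told apart.

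**Figure D1:**
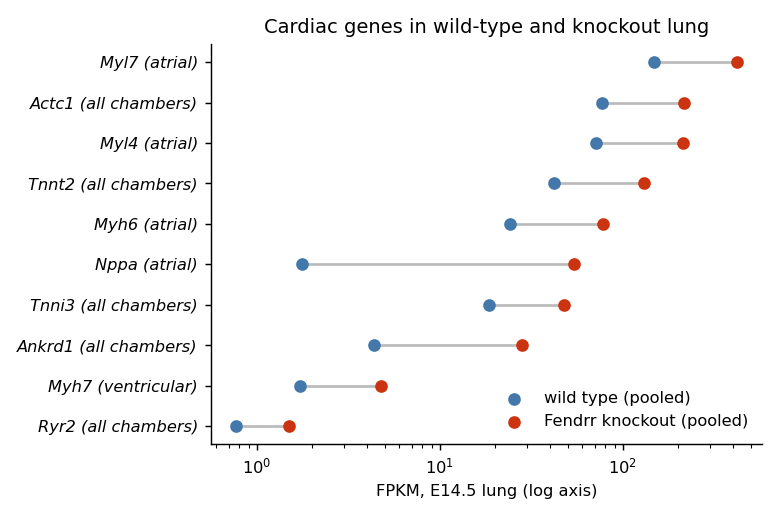
Pooled FPKM of the 10 cardiac genes in E14.5 wild-type (blue) and Fendrr knockout (red) lung, on a log axis, 1 value per genotype and hence no error bar. Most lines have about the same length, that of Nppa is the longest (1.77 to 54.2 FPKM), and that of Ryr2 the shortest (0.765 to 1.503 FPKM).

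The 4 atrial members were high in both genotypes, apart from Nppa. Myl7, the atrial regulatory light chain of myosin (mm9 chr11:5796640-5798785, minus strand), was at 147 FPKM in wild-type lung and 422 FPKM in knockout, a log2 difference of 1.52. It was the most abundant member in both, at rank 453 of the 14265 genes in wild type and rank 166 in knockout. Myl4, the atrial essential light chain (chr11:104411977-104448533, plus strand), was at 71.3 and 212.6 FPKM, a log2 difference of 1.57. Myh6, the alpha myosin heavy chain (chr14:55558713-55585444, minus strand), was at 24.1 and 77.5 FPKM, a log2 difference of 1.68. These 3 contractile genes of the atrium were thus 2.87-fold, 2.98-fold and 3.21-fold higher in knockout.

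Nppa, the precursor of atrial natriuretic peptide (chr4:147374855-147376176, plus strand), stood apart from them. It was at 1.77 FPKM in wild-type lung and 54.2 FPKM in knockout, a ratio of 30.6 and a log2 difference of 4.86, with rank 12555 in wild type and rank 1515 in knockout among 14265 genes. Only 9 genes of the 14265 had a larger log2 difference. Nppb, which encodes the related B-type peptide and is no member, lies 13540 bases from it. Nppb was at 0.103 FPKM in wild-type lung and 2.25 FPKM in knockout, a log2 difference of 3.54.

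The 1 ventricular member was low. Myh7, the beta myosin heavy chain (chr14:55587624-55613386, minus strand), was at 1.71 FPKM in wild-type lung and 4.76 FPKM in knockout, a log2 difference of 1.42. Myh6 and Myh7 lie 2179 bases apart and are nearly identical in sequence, so the split of reads between them is uncertain. Entries for microRNAs or antisense transcripts overlap Myl4, Myh6, Myh7 and Ryr2, the highest of them at 0.699 FPKM, and the sources used here do not say whether reads were counted by strand.

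The 5 members used in all chambers had log2 differences from 0.89 to 2.65. Tnnt2, troponin T (chr1:137732963-137748838, plus strand), was at 41.9 FPKM in wild-type lung and 129.9 FPKM in knockout, a log2 difference of 1.63. Tnni3, the inhibitory troponin subunit (chr7:4469910-4474045, minus strand), was at 18.6 and 47.7 FPKM, a log2 difference of 1.35. Actc1, cardiac alpha-actin (chr2:113873025-113878547, minus strand), was at 77.2 and 215 FPKM, a log2 difference of 1.48. The contractile genes Myl7, Myl4, Myh6, Myh7, Tnnt2, Tnni3 and Actc1 therefore lay within a narrow band, from 2.56-fold to 3.21-fold.

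Ankrd1, a protein of the sarcomere and nucleus that responds to stretch (chr19:36186455-36194334, minus strand), lay above that band. It was at 4.37 FPKM in wild-type lung and 27.99 FPKM in knockout, a ratio of 6.40 and a log2 difference of 2.65. Nppa and Ankrd1 were the 2 members at least 4-fold higher, beside 0.224% of all lung genes. Ryr2, the calcium release channel (chr13:11645370-12199212, minus strand), lay below the band at 0.765 and 1.503 FPKM, a log2 difference of 0.89. It was the 1 member under 2-fold and was 1.96-fold higher; all 10 reached 1.5-fold, beside 2.56% of all genes. Its wild-type value was under the 1 FPKM filter.

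**Figure D2:**
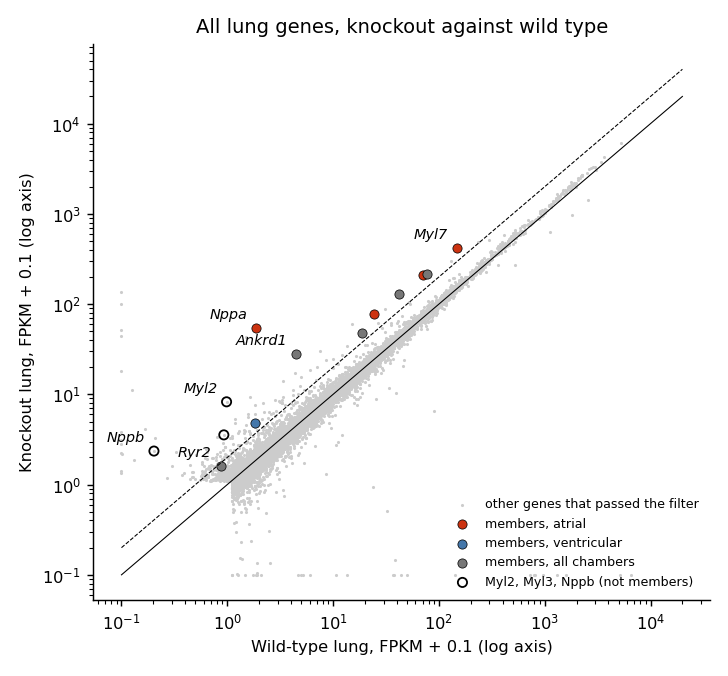
FPKM + 0.1 in knockout against wild-type E14.5 lung for the 14265 genes at 1 FPKM or more in either genotype, on log axes, with the solid line at equality and the dashed line at 2-fold higher. The members (atrial red, ventricular blue, all chambers gray) lie on or above the dashed line except Ryr2, and Nppa, at 54.2 FPKM in knockout, is the farthest from it among them.

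Because the contractile genes differed by nearly the same factor, each gene was also set against Tnnt2 within its own genotype. This ratio was chosen after the values were seen. Myl7 was at 351% of the Tnnt2 level in wild type and 325% in knockout, Myl4 at 170% and 164%, and Myh6 at 57.6% and 59.6%. Nppa was at 4.23% of Tnnt2 in wild type and 41.7% in knockout, a 9.87-fold higher ratio. The ratio of Ankrd1 was 10.4% and 21.5%, and that of Ryr2 was lower in knockout, at 1.82% and 1.16%. The ventricular light chains, which are no members, were at 2.11% and 6.28% of Tnnt2 for Myl2, a 2.98-fold higher ratio, and at 1.97% and 2.66% for Myl3. Relative to Tnnt2, the atrial contractile members were thus close in both genotypes, while Nppa, Ankrd1 and the contractile gene Myl2 were higher in knockout.

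**Figure D3:**
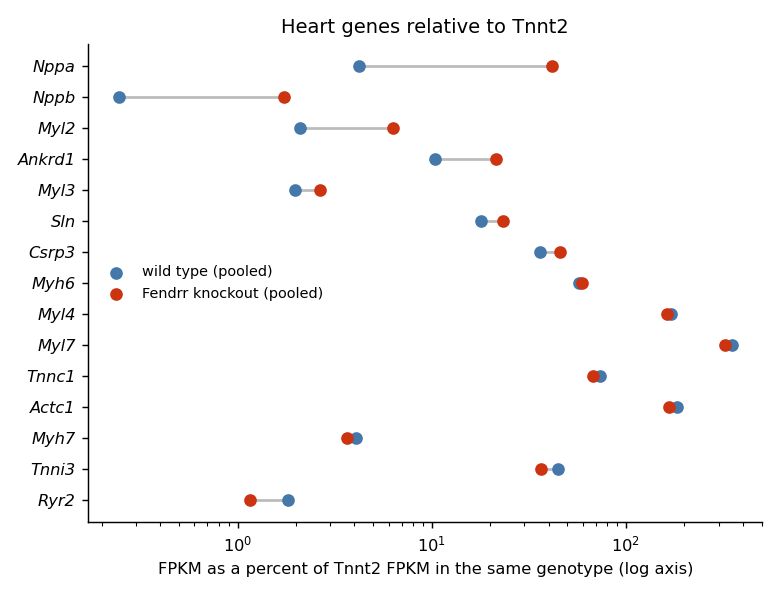
FPKM of members and of 6 other heart genes as a percent of Tnnt2 FPKM in the same genotype, on a log axis, wild type in blue and knockout in red, pooled values. The points of Myh6, Myl4, Myl7, Tnnc1 and Actc1 nearly coincide, while Nppa goes from 4.23% to 41.7%.

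The comparison of atrial with ventricular genes took in 4 further atrial genes and 5 further ventricular genes. The chamber names are those given to each gene in the lists, and chamber or muscle type was not measured in these lungs. Sln, the atrial regulator of the calcium pump, was at 7.49 FPKM in wild-type lung and 30.3 FPKM in knockout, and Mybphl, an atrial myosin-binding protein, at 1.82 and 4.31 FPKM. Bmp10, a growth factor of the atrium (0.0479 and 0.836 FPKM), and Kcnj3, a potassium channel (0.377 and 0.782 FPKM), stayed under the filter in both genotypes. Of the ventricular genes, Myl2, the ventricular regulatory light chain, was at 0.884 and 8.16 FPKM, a log2 difference of 3.07. Myl3, the ventricular essential light chain, was at 0.827 and 3.45 FPKM, and Pln, the calcium pump inhibitor phospholamban, at 0.542 and 2.20 FPKM. Hey2, a transcriptional repressor made in ventricular compact muscle, was at 2.06 and 2.31 FPKM. Irx4, a ventricular transcription factor, was at 0.0143 and 0.0289 FPKM, under the filter. The ventricular light chains therefore remained low in knockout lung although their ratios were high.

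Over the genes that passed the filter, the median log2 difference was 1.63 for 6 atrial genes and 1.84 for 5 ventricular genes, so that atrial minus ventricular was -0.21. Of the 6 atrial genes 4 are members chosen on this contrast, and Myl2, Myl3 and Pln passed the filter only through their knockout values, so the difference is a description that the choice of genes and the filter partly set. Without a filter it was -0.006, and with only the genes outside the members -0.29. The sign of this value depended on the choices made: it was 0.52 with a pseudocount of 1 FPKM and 0.45 with means in place of medians. The data gave no order of atrial and ventricular genes. By summed FPKM the atrial version was the larger of each pair in both genotypes, although shares near the maximum hide differences in the low partner. Myl7 made up 99.4% of the summed FPKM of Myl7 and Myl2 in wild type and 98.1% in knockout. Myl4 was 98.9% of Myl4 and Myl3 in wild type and 98.4% in knockout, and Myh6 was 93.4% of Myh6 and Myh7 in wild type and 94.2% in knockout. As ratios, Myl7 over Myl2 was 166 in wild type and 51.7 in knockout, Myl4 over Myl3 was 86.2 and 61.5, and Myh6 over Myh7 was 14.1 and 16.3. The light chain ratios were thus lower in knockout, and the heavy chain ratio was slightly higher.

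Other heart genes were counted in 8 lists, which were drawn up with earlier results of these data known. The lists also hold genes better known from skeletal muscle, such as Casq1 and Actn3. In wild-type and knockout lung, Casq1 was at 2.38 and 6.20 FPKM and Actn3 at 0.831 and 1.12 FPKM. Of their 67 genes, 60 passed the filter, 33 were at least 2-fold higher, 0 at least 2-fold lower and 27 in between, with a median log2 difference of 1.07. Over all lung genes 1.20% were at least 2-fold higher and 0.722% at least 2-fold lower. Of the 60, 13 passed the filter only through knockout and 12 of these were among the 33, so a high count was partly built in. Of the 47 at 1 FPKM or more in wild type, 21 were at least 2-fold higher. Of the 18 further sarcomere and Z-disc genes, 16 passed and 11 were at least 2-fold higher. Tnnc1, the calcium-binding troponin subunit, was at 30.9 and 88.0 FPKM, Csrp3, a Z-disc protein, at 15.1 and 59.5 FPKM, and Ttn, the giant spring of the sarcomere, at 1.01 and 3.32 FPKM. Tpm1 (309 and 386 FPKM), Nexn (77.5 and 94.5 FPKM) and Nebl (15.3 and 20.2 FPKM) were under 2-fold.

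Among 13 genes of calcium handling and ion channels, 4 were at least 2-fold higher, with a median log2 difference of 0.39. Of these 4, Kcnj5 (0.746 and 2.17 FPKM) passed the filter only through its knockout value. Casq2, the cardiac calcium store protein, was at 2.70 and 8.47 FPKM, whereas Atp2a2, the calcium pump, was at 54.8 and 71.8 FPKM and Gja1, a gap junction protein, at 44.7 and 45.6 FPKM. Of 10 cardiac transcription factors, 9 passed the filter and 5 were at least 2-fold higher, beside 1.20% of all lung genes. Of these 5, Gata4 (3.41 and 7.43 FPKM), Tbx20 (1.52 and 3.82 FPKM) and Smyd1 (2.47 and 6.01 FPKM) also passed in wild type. Nkx2-5 (0.515 and 1.20 FPKM) and Hand2 (0.9998 and 2.17 FPKM) passed only through their knockout values. Tbx5 (32.6 and 34.7 FPKM), Gata6 (20.2 and 24.4 FPKM) and Mef2c (11.5 and 12.6 FPKM) were close in both genotypes.

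Among genes known from the pulmonary vein sleeve and the sinoatrial node, Shox2, a regulator of the pacemaker, was at 0.959 and 3.20 FPKM, and Hcn4, the pacemaker channel, at 0.687 and 1.94 FPKM. Isl1, a regulator of heart progenitors, was at 1.71 and 1.97 FPKM. Of 8 stress and energy genes, 7 passed the filter and 6 were at least 2-fold higher, beside 1.20% of all lung genes. Among the 6 were Ckm, the muscle creatine kinase (4.91 and 15.6 FPKM), and Cox6a2, a muscle subunit of cytochrome oxidase (3.27 and 13.9 FPKM). Nppb and Mb (0.486 and 1.10 FPKM), also among the 6, passed only through their knockout values. None of 5 endocardial and epicardial genes reached 2-fold. Their median log2 difference was 0.43. In wild-type lung these 5 genes ranged from 1.65 FPKM (Tbx18) to 31.2 FPKM (Upk3b). Bulk lung does not show which cells made these transcripts, or those of Tbx5, Gata6, Mef2c, Gja1 and Tpm1.

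**Figure D4:**
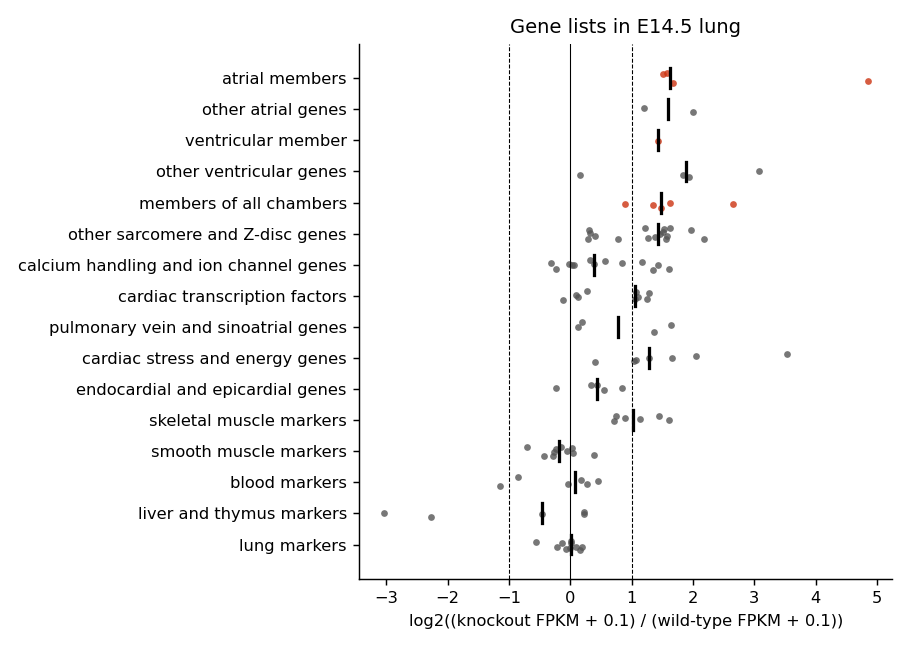
Log2 difference, knockout over wild type, of each gene that passed the filter, by list, with members in red, other genes in gray, black bars at the medians, and dashed lines at 2-fold. The medians of the contractile lists and of the skeletal muscle markers (1.02) lie above 1, and those of the smooth muscle and lung lists (-0.19 and 0.01) near 0.

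Markers of other tissues gave these values beside the members. Of 10 skeletal muscle markers, 6 passed the filter and 3 were at least 2-fold higher: Acta1, skeletal alpha-actin (3.29 and 9.14 FPKM), and the fast troponins Tnnc2 (1.20 and 3.83 FPKM) and Tnni2 (1.16 and 2.67 FPKM). The regulators Myog (0.673 and 0.853 FPKM) and Myod1 (0.160 and 0.161 FPKM) were under the filter, Myh8 was listed at 0 in both genotypes, and the list's sum was 18.9 FPKM in wild-type lung and 37.7 FPKM in knockout. The median log2 difference of the 6 that passed was 1.02, beside 1.07 for the other heart genes. All 6 passed in wild type, whereas 13 of the 60 other heart genes passed only through knockout, so the medians are not alike in selection. The 10 smooth muscle markers summed to 563 and 527 FPKM, with none at 2-fold. Log2 differences within that list ranged from -0.71 for Myh11 to 0.38 for Des. None of the 10 lung markers reached 2-fold, with Sftpc, the surfactant protein of the distal epithelium, at 819 and 871 FPKM, and Nkx2-1, the lung epithelial regulator, at 61.4 and 53.1 FPKM. Foxf1a, the transcription factor gene beside Fendrr, was at 36.6 and 24.8 FPKM, a log2 difference of -0.56, below the 5th percentile of all genes. That percentile describes the spread over genes and not the error of a single gene. The paper reported that Foxf1a did not change significantly in knockout lung. Blood genes summed to 1863 and 1497 FPKM, and 1 of them, Alas2 (45.2 and 20.5 FPKM), was at least 2-fold lower. The globins went both ways, with Hbb-b1 at 1124 and 623 FPKM, Hbb-y at 605 and 734 FPKM, and Hba-x at 78.8 and 107.8 FPKM. Of the liver and thymus markers, Alb (2.39 and 0.202 FPKM) and Afp (2.25 and 0.387 FPKM), both made by fetal liver, were lower in knockout. Their part in the result was not tested, nor was that of the sex-linked genes.

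In brain tissue, where heart muscle is absent, Myl7, Actc1, Ankrd1 and Myh6 were close to 0, while the other members reached higher levels. The brain tables were normalized separately from the lung table, so levels are set side by side only. Over the 8 brain groups, Myl7 ranged from 0 to 0.0809 FPKM, Actc1 from 0.00704 to 0.0698 FPKM, Ankrd1 from 0 to 0.0875 FPKM, and Myh6 from 0.0237 to 0.245 FPKM. Tnnt2 ranged from 0.0415 to 1.03 FPKM and Tnni3 from 0.370 to 0.813 FPKM. Nppa ranged from 0.144 to 2.00 FPKM, which includes its wild-type lung level of 1.77 FPKM. Myl4 ranged from 0.422 to 3.12 FPKM and Myh7 from 0.463 to 1.09 FPKM. Ryr2, also a channel of neurons, reached the highest level, with 7.26 FPKM in wild-type and 8.75 FPKM in linc-Brn1b knockout P7 brain. Both were above its values in lung.

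Few members could be compared between genotypes in the brain of Peril or linc-Brn1b knockouts, since most were below 1 FPKM. Of those that passed the filter, none differed by 2-fold in either direction. In E18.5 brain 4 members passed, beside 1.51% of all genes at 2-fold. At E13.5 none passed, so nothing was compared, beside 3.17% of all genes. At E15.5 1 passed, beside 0.527%, and at P7 5 passed, beside 2.29%.

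**Figure D5:**
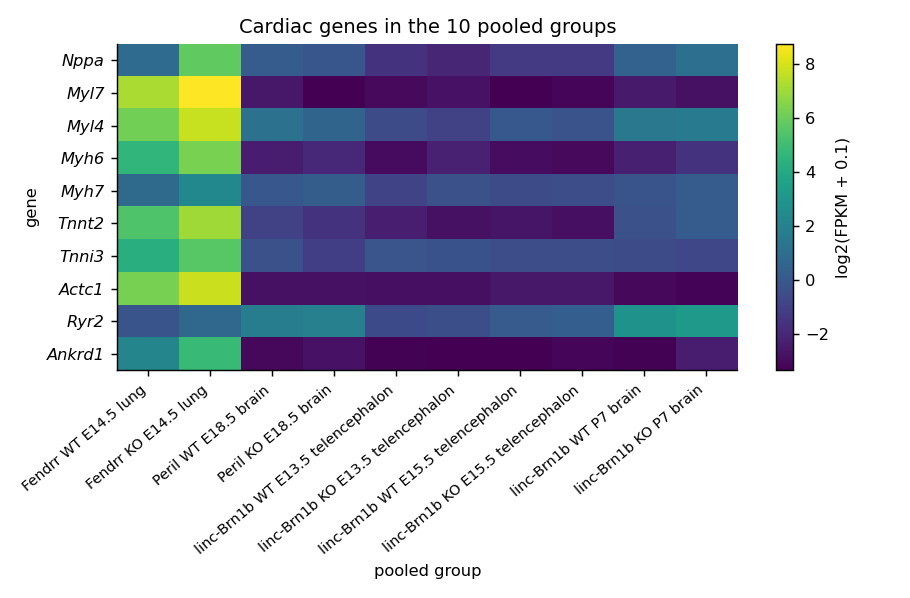
Level of each member as log2(FPKM + 0.1), shown by color, in the 10 pooled groups, lung at the left. The lung columns are brightest for Myl7, up to 422 FPKM, and Ryr2 is brightest in P7 brain, up to 8.75 FPKM.

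The genes whose pattern was most like the members' were sought among 13453 genes at 1 FPKM or more in knockout lung, by Pearson's r of log2(FPKM + 0.1) with the members' mean over the 10 pooled groups. The highest were Adprhl1, Cxcl13, Popdc2, Ckm and Cox8b, with r from 0.994 to 0.996. The points share tables and depth, and the pattern is mainly the difference between lung and brain.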

How the data were processed

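Total RNA from E14.5 lung was extracted with Trizol and RNeasy columns and made into TruSeq libraries, 2 per genotype. The authors aligned reads with TopHat2 to mm9, assembled transcripts with Cufflinks (version 2.0.2) and deposited 1 pooled FPKM value per gene and genotype from Cuffdiff2, together with fold changes, test statistics and p-values of their own comparisons, which were not used. A further 24 FPKM columns, of comparisons across ages, were not used. Groups follow the labels. Because values were pooled, no spread, depth or test could be had, and Cuffdiff2 scaling within a table can move all genes of a genotype together. Genes at 1 FPKM or more in either genotype were kept, and a pseudocount of 0.1 FPKM was added before the log2. On this scale the ratio of low genes is understated.

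The 10 members and all lists were chosen with earlier results of these data known. The genes named were the members, the list genes, up to 10 others with the largest difference at 1 FPKM or more in both genotypes and a symbol that is no RIKEN clone, predicted gene or lincRNA name, and 5 by likeness of pattern; some of these are not reported here. Gene positions are those of the table in mm9, counted from 1, and strands are from GENCODE vM1. Alternatives were other pseudocounts, filters, scalings and thresholds. Python 3.11.15, NumPy 2.4.6 and pandas 2.3.3 were used, and the calculation was tested on simulated data.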

Additional observations from a re-analysis of the deposited data

How the results depend on the processing

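A value counted as moved when it shifted by 1.5-fold or more. The number of members at least 2-fold higher was 9, and 2 at a 4-fold threshold, which follows from the threshold itself. Atrial minus ventricular was -0.21, and became 0.52 with a pseudocount of 1 FPKM and 0.45 with means in place of medians. With a filter of 5 FPKM, which left Myl2 as the only ventricular gene, it was -1.39. The cause of these shifts was otherwise not tested. The log2 differences of all 10 members stayed above 0 and within 1.5-fold of the reported value under all 40 alternatives of pseudocount, rescaling and centring. The median of the other ventricular genes, 1.89, was 1.17 with a pseudocount of 1 FPKM. Rescaling both genotypes to the same sum shifted differences by -0.027 log2. No paired analysis was possible because each genotype has 1 pooled value, and leaving out a replicate was not possible for the same reason. Depth is unknown, so the precision of low values such as those of Ryr2, Myl2 and Nppb cannot be given.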

Other observations

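Among symbols outside the lists, RIKEN clone names, predicted genes and lincRNA names were left out. Several genes of mast cells were higher in knockout lung at 1 FPKM or more in both genotypes, although other genes had larger differences. Tpsab1 and Tpsb2, both tryptases, were at 1.53 and 1.71 FPKM in wild type and 9.35 and 7.59 FPKM in knockout. Cma1, a chymase, was at 4.27 and 17.3 FPKM, Cpa3, a carboxypeptidase, at 5.96 and 18.3 FPKM, and Hdc, which makes histamine, at 1.71 and 5.95 FPKM. Trim55, a ubiquitin ligase of the sarcomere, was at 1.16 and 3.59 FPKM. BC100530 was at 1.46 and 5.94 FPKM, NCX1 at 2.09 and 7.97 FPKM, and Ufd2 at 1.45 and 5.52 FPKM. NCX1 overlaps Slc8a1, a gene of the calcium handling list, so the split of reads between these entries is uncertain. The Slc8a1 entry differed less between the genotypes, from 7.97 (wild type) to 11.8 FPKM (knockout). Its log2 difference was 0.57, beside 1.88 for NCX1. Whether this locus reached 2-fold therefore depended on the entry used. These are pooled values with no test.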
